A study of Mus musculus with 24 samples.

Results

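Kidneys of alloxan-diabetic mice fed enarodustat were compared with kidneys of sham mice, using 15 of the 24 arrays of the study, 9 treated and 6 sham, taken by their sample labels. All mice were males of the outbred stock Crl:CD1(ICR). Sham mice received vehicle by vein and plain feed. Treated mice received alloxan, a toxin of insulin-producing beta cells, by vein at 90 mg/kg 3 days ahead of group assignment, and then feed holding 0.01% enarodustat by weight. Kidney tissue was taken 16 days after assignment. A further 9 mice, called DKD here, received the same alloxan and plain feed, and were matched to the treated mice on blood glucose and body weight. Each difference between treated and sham kidneys therefore carries both the diabetes and the drug, so values of the DKD mice are set beside it. The model is a short insulin deficiency caused by a toxin in 1 sex, and none of the groups analysed here received enarodustat without alloxan.

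Hypoxia-inducible factors (HIFs) are transcription factors whose alpha subunits are hydroxylated by prolyl hydroxylases when oxygen is plentiful, and are then degraded. Enarodustat blocks these hydroxylases, so HIF persists at normal oxygen and drives genes for glycolysis, lactate export, vessel growth and erythropoietin. The proximal tubule of the kidney normally burns fatty acids and makes glucose. In diabetes it meets more filtered glucose and more circulating fatty acids, which activate the nuclear receptor PPAR alpha.

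RNA of each kidney was hybridised to 1 single-colour array. Levels below are log2 processed signals minus the array's 75th percentile, so 0 means a probe as bright as that percentile and each unit is a doubling of signal. A change is the log2 difference of group means, treated minus sham, with its standard error (SE). Between 37716 and 44732 spots per array were well above background, and 0 were saturated. Across genes, arrays correlated at 0.981 to 0.991 within sham, 0.976 to 0.988 within the treated group and 0.967 to 0.987 between them. The markers of proximal tubule (Slc34a1, Lrp2), thick ascending limb (Umod, Slc12a1), distal tubule (Slc12a3), collecting duct (Aqp2, Atp6v1g3) and podocyte (Nphs1) were well above background on every array. Each of the 3 slides held 2 sham and 3 treated arrays. The sham arrays occupied row 1 of their slides and the treated arrays row 2, so row and group cannot be told apart from these arrays alone. The DKD arrays, 6 in row 1 and 3 in row 2, are the only arrays that allow a row term, and counts or values with that term follow each group of genes.

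The treated kidneys differed from sham kidneys in many genes and in both directions. Of 17736 genes tested, 2753 (15.5%) passed an adjusted p of 0.05 (limma, two-sided, Benjamini-Hochberg over all genes tested), 1554 (8.76%) higher and 1199 (6.76%) lower. Most of the changes were small: 488 of these genes changed at least 2-fold, 369 up and 119 down, and the median size of a passing change was 0.55. The arrays of both groups did not overlap for 876 genes (4.94%), 517 higher (2.91%) and 359 lower (2.02%). In the same fit DKD kidneys differed from sham kidneys in 2057 genes (11.6%), 972 higher (5.48%) and 1085 lower (6.12%), and treated differed from DKD kidneys in 127 (0.716%), 108 higher (0.609%) and 19 lower (0.107%). These comparisons share arrays. Scaling each array by its median moved the median change of all genes from -0.02 to -0.16, and 30.0% of 2364 passing genes were then higher, against 56.4% here. With slide row as a term 890 genes passed, 538 higher and 352 lower, 702 of them among the 2753, and the median change of all genes was -0.09. At an unadjusted p under 0.05 (limma) there were 5262 of the 17736 genes, and 4226 with slide row. This was not counted for all genes between treated and DKD mice, so list counts at that level there have no share beside them. Counts in gene lists below stand beside these shares of all genes.

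Among genes measured in both groups, the 12 that rose most stood 5.22-fold to 25.1-fold above sham. The 10 of them reported here were Mgarp, a mitochondrial protein known as a HIF target, the lactate exporter Slc16a3, the BMP antagonist Grem1, and Cyp24a1, which breaks down active vitamin D. With them came Mab21l3, the kynurenine enzyme Kynu, Ankrd37 and Egln3, both known HIF targets, the retinal dehydrogenase Aldh1a1, and Bhmt, which uses betaine to remethylate homocysteine. The lowest, median and highest levels of Mgarp were -6.39, -5.63 and -3.49 in sham mice and -2.06, -0.48 and 0.35 in treated mice. No treated array reached down to a sham array, and the DKD median of -4.05 lay near the sham side. From sham to treated mice Mgarp rose by 4.65 ± 0.40 (SE), 25.1-fold (adjusted p = 4.8e-08), though only 3 of 6 sham arrays had its probe well above background.

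Slc16a3, which exports lactate together with a proton, had levels of -3.70, -3.07 and -2.79 (lowest, median, highest) in sham mice, -2.13, -1.82 and -1.60 in DKD mice and 0.44, 1.05 and 1.91 in treated mice. None of the 3 groups overlapped another. Its rise over sham was 4.33 ± 0.19, 20.1-fold (adjusted p = 1.89e-13). Treated mice exceeded DKD mice by 3.03 (adjusted p = 4.3e-11), and DKD mice exceeded sham mice by 1.29 (adjusted p = 0.000116). Mgarp, Ankrd37 and Egln3 also passed between treated and DKD mice, with changes of 3.47, 2.05 and 1.48.

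Grem1, which binds BMPs outside the cell, lay at -5.05 to -3.68 in sham mice (median -3.90) and at -0.77 to 0.82 in treated mice (median 0.14). The groups did not overlap, and the change was 4.25 ± 0.34, 19.1-fold (adjusted p = 1.79e-08). DKD mice had a median of -0.38, and treated minus DKD was 0.60 (95% interval -0.02 to 1.23, adjusted p = 0.478).

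Kynu and Bhmt rose by 2.77 and 2.38 in treated mice, and their DKD changes were 3.73 and 2.95. Treated minus DKD missed the threshold for Kynu (interval -1.97 to 0.07) and Bhmt (interval -1.43 to 0.30). Cyp24a1 rose by 2.94 ± 0.69 and Aldh1a1 by 2.41 ± 0.57, and neither passed between DKD and sham mice. Their treated minus DKD intervals were -0.15 to 2.40 and 0.02 to 2.13, with adjusted p of 0.546 and 0.448. Mab21l3 rose by 3.05 ± 0.37 over sham, with values of 1.92 for DKD minus sham and 1.14 for treated minus DKD (adjusted p = 0.13).

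Among these 10 leading rises, Mgarp, Slc16a3, Grem1, Mab21l3, Ankrd37 and Egln3 also passed with slide row as a term, at 2.16 to 4.67. Cyp24a1 (3.10), Kynu (2.36), Aldh1a1 (2.86) and Bhmt (2.06) did not, with adjusted p of 0.0818 to 0.132. Normexp background correction, which shrinks changes of dim probes, gave smaller rises that passed, of 1.61 for Mgarp, 2.81 for Slc16a3, 2.22 for Grem1, 1.72 for Mab21l3, 1.06 for Kynu and 1.53 for Bhmt. The deposited table gave similar values for 5 of these 6, from 1.06 for Kynu to 2.81 for Slc16a3.

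**Figure D1:**
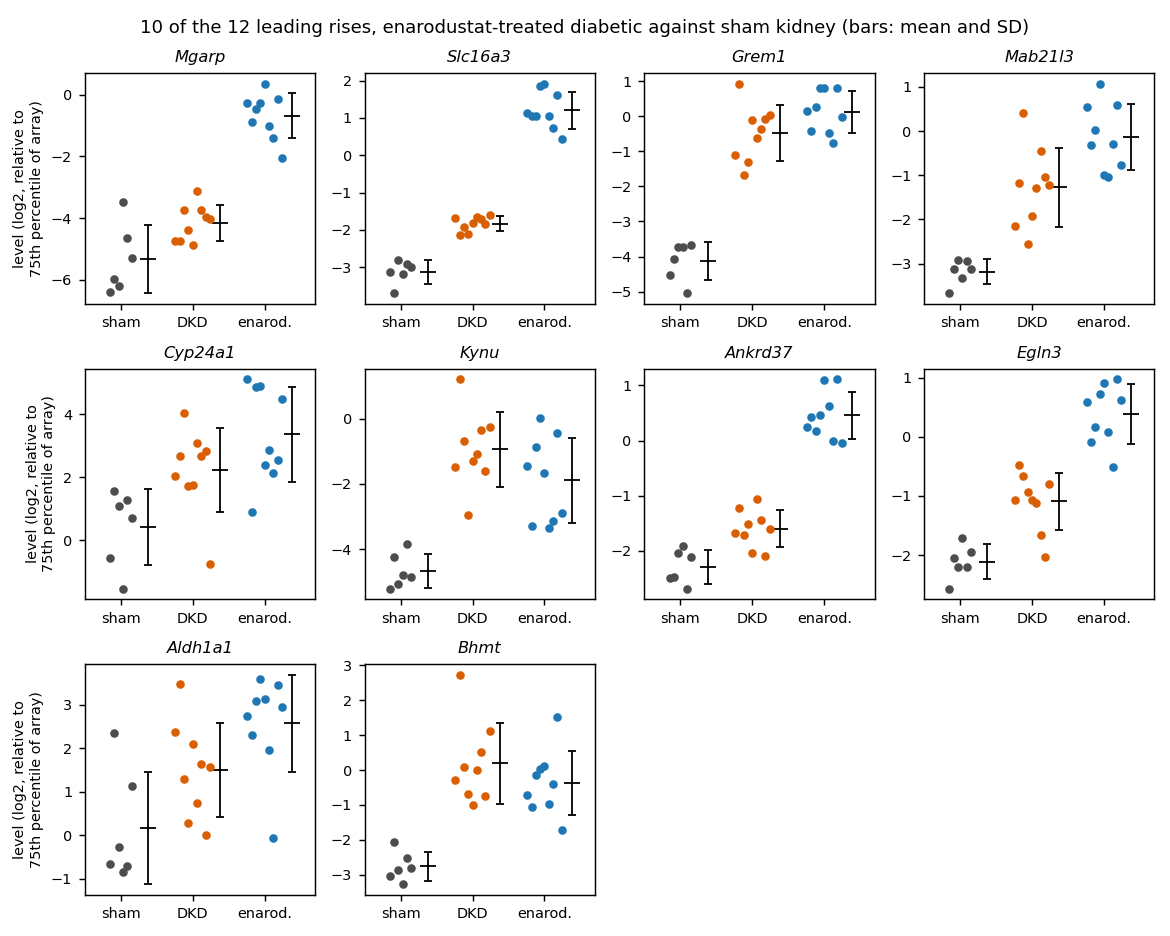
Level of each of 10 of the 12 leading rises on every array (log2 relative to the array's 75th percentile, own axis for each gene) in 6 sham, 9 DKD and 9 enarodustat-treated mice, with the mean and SD of each group beside the points. Treated mice stand clear of DKD mice for Mgarp, Slc16a3 and Ankrd37 and overlap them narrowly for Egln3, while Kynu and Bhmt spread over a similar range in both diabetic groups.

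Among genes measured in both groups, the 12 that fell most stood 4.48-fold to 24.4-fold below sham, and for each of them treated minus DKD missed the threshold. They included Synpr, a synaptic vesicle protein, the calcium-binding Anxa13, the peptidyl arginine deiminase Padi3, and the xenobiotic cytochromes Cyp2b10 and Cyp2b9. With them fell the carboxylesterase Ces1g, the alcohol dehydrogenase Adh6a, the methyltransferase Inmt, the plasma protein gene Apoh, the secreted Angptl7, Ct55, and the steroid 5-alpha reductase Srd5a2. Inmt was bright in every mouse. Its levels were 6.24, 6.79 and 7.23 in sham mice, 3.63, 4.38 and 6.67 in DKD mice and 2.90, 4.57 and 5.66 in treated mice. No treated array reached the sham range, and the change was -2.22 ± 0.40, 4.67-fold lower (adjusted p = 0.000622). Angptl7, an angiopoietin-like protein, lay at 4.61 to 5.63 in sham mice and at 1.88 to 4.01 in treated mice. Again the groups stood apart, with a change of -2.20 ± 0.39 (adjusted p = 0.000524).

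Synpr showed the largest fall, -4.61 ± 1.42, and the widest spread. Its levels were 1.59, 2.51 and 2.92 in sham mice and -8.05, -1.65 and 2.66 in treated mice, so 1 treated array lay inside the sham range, and 7 of 9 treated arrays were well above background. Its adjusted p of 0.0291 rose to 0.0562 without enarodustat 3, an array that carries a quality warning of the scanner software, and it also missed the threshold without sham 1, 3 or 4. Anxa13 fell by 3.00 on the log2 scale (SE 0.45, adjusted p = 0.000116), from a sham median of 2.08 to a treated median of -1.37. Cyp2b10 and Cyp2b9, induced through the nuclear receptor CAR, fell by 2.60 and 2.53 without overlap, and their DKD minus sham values were -3.13 and -3.08. Padi3 fell by 2.90, with values of -1.40 for DKD minus sham and -1.50 for treated minus DKD, neither of which passed. Ct55 and Padi3 kept their calls with slide row as a term (-2.20 and -3.76). The other 10 falls did not, at -1.02 for Cyp2b10 to -3.40 for Synpr and adjusted p of 0.0613 to 0.517. Normexp gave smaller falls that passed for Ces1g (-0.64), Ct55 (-0.72), Adh6a (-0.76), Padi3 (-0.77), Srd5a2 (-1.18), Cyp2b9 (-1.32) and Synpr (-2.98), and the deposited table gave -1.73 for Cyp2b10.

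**Figure D2:**
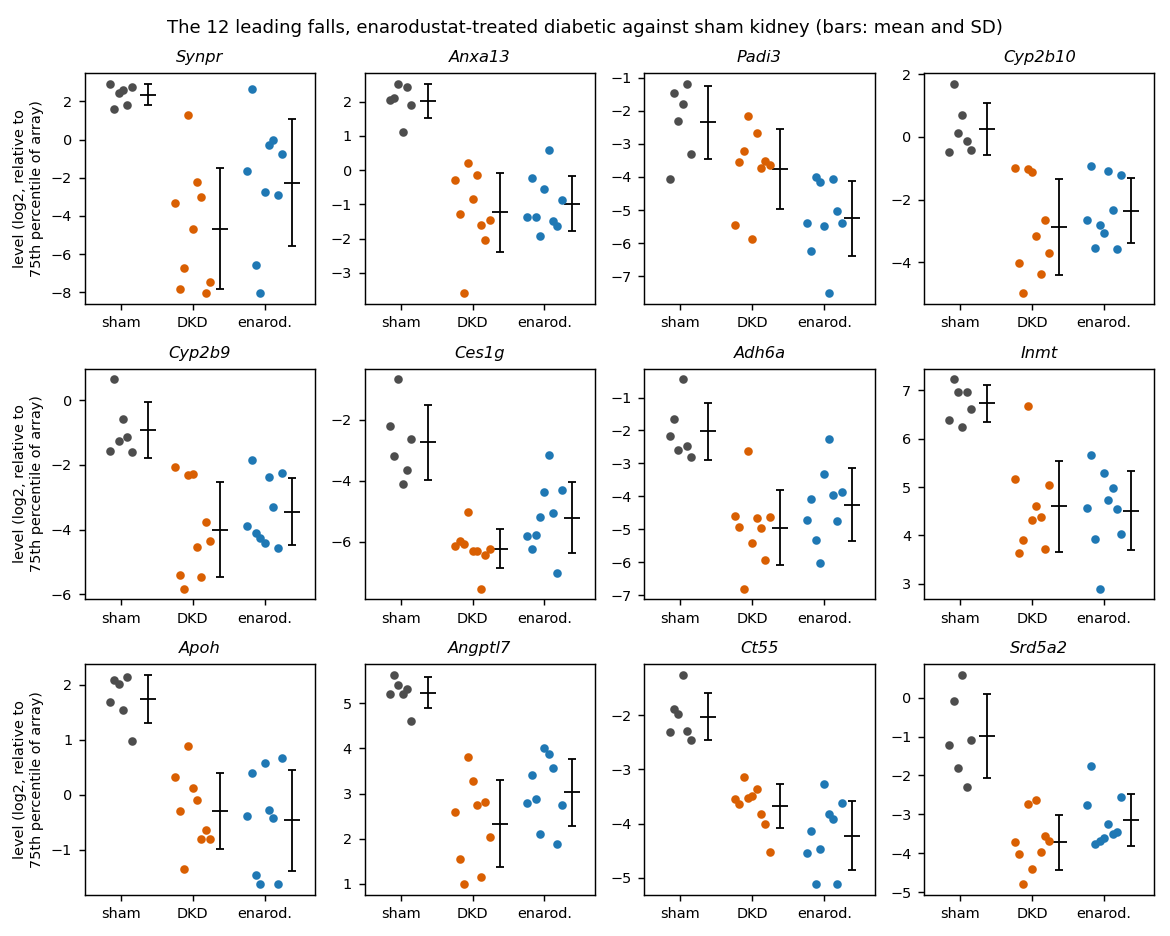
Level of each of the 12 leading falls on every array (log2 relative to the array's 75th percentile, own axis for each gene) in 6 sham, 9 DKD and 9 enarodustat-treated mice, with group mean and SD. The treated mice lie below the sham mice, apart from single arrays of Synpr, Padi3, Ces1g, Adh6a and Srd5a2 that reach the sham range. In most panels the treated mice lie with the DKD mice, and for Padi3 their mean is below the DKD mean.

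HIF target genes outside glucose metabolism were raised as a group. There were 16 of 34 that rose and 0 that fell, against 8.76% of all genes that rose, and the median change was 0.48. In DKD mice 5 of the 34 rose and 1 fell, against 5.48% and 6.12% of all genes. Between treated and DKD mice 12 rose and 0 fell, where 0.609% of all genes rose. The mean of the list lay at 0.35 to 0.75 above the sham mean on the treated arrays and at -0.20 to 0.16 on the sham arrays, so all 9 treated arrays were above all sham arrays. With slide row as a term 6 of the 34 rose and the median was 0.20. The promoters of Slc16a3, Ankrd37 and Egln3 are shown because, of the lists of HIF targets, glycolysis and lactate transport, these genes rose most among those with a promoter in the reference table. Each is the 250 bases before the RefSeq transcript start, 5′ to 3′ along the gene, from assembly GRCm38.p6. Capitals mark ACGTG or GCGTG on either strand, the core that HIF can bind.
Slc16a3 (chr11:120948817-120949066, plus strand): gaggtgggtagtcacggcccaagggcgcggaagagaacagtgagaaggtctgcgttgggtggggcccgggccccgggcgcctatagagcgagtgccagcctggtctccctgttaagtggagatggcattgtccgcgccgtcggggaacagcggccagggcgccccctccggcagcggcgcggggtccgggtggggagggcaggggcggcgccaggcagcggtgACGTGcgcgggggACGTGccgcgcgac
Ankrd37 (chr8:45999851-46000100, minus strand): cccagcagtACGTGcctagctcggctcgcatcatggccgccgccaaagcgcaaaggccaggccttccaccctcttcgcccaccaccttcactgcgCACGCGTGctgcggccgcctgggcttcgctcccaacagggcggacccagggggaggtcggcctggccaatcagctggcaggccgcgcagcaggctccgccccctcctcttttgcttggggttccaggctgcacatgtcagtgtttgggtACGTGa
Egln3 (chr12:54203875-54204124, minus strand): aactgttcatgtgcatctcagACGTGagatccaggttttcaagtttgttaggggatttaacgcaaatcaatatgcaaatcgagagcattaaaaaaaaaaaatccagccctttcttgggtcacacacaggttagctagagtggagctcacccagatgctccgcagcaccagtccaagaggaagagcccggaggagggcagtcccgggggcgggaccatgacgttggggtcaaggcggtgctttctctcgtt
Slc16a3 holds 2 ACGTG matches, which begin 27 and 14 bases before the start. Ankrd37 holds 2 ACGTG matches, 241 and 6 bases before the start, and 2 overlapping GCGTG matches, 1 on each strand, that make up the 8 capital letters in a row. Egln3 holds 1 ACGTG match at 229 bases. Of 32851 RefSeq windows of this length, 38.6% hold either motif and 16.6% hold ACGTG, so a match is a description of these letters and not evidence of binding.

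Ankrd37, an ankyrin repeat protein, had levels of -2.69, -2.30 and -1.91 in sham mice, -2.09, -1.61 and -1.06 in DKD mice and -0.03, 0.43 and 1.11 in treated mice. Treated mice stood clear of both other groups. The change from sham was 2.74 ± 0.19, 6.7-fold (adjusted p = 1.98e-09). Egln3, a HIF hydroxylase that HIF itself induces, went from a sham median of -2.12 to a treated median of 0.59, a change of 2.50 ± 0.23 (adjusted p = 1.61e-07). Of the other 9 HIF subunits and regulators tested, Egln2, another of the hydroxylases, fell by 0.41 on the log2 scale (adjusted p = 0.00547). The other 8 did not pass, where 6.76% of all genes fell. Hif1a was at 0.20 (interval 0.05 to 0.35) and Epas1, which encodes HIF-2 alpha, at 0.32 (interval -0.01 to 0.64).

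Other HIF targets that rose were Stc2, a secreted glycoprotein, by 1.44 ± 0.19, Ddit4, an inhibitor of mTORC1, by 1.22 ± 0.25, and the vessel growth factor Vegfa by 0.59 ± 0.12. Stc2 and Ddit4 also passed between treated and DKD mice (0.82 and 1.01). Vegfa did not (0.40, interval 0.18 to 0.63, adjusted p = 0.0892). Ddit4 was uneven across slides, with changes of 2.27, 0.69 and 0.69 on slides 1, 2 and 3. Slc2a1, the glucose transporter GLUT1, rose by 0.49 ± 0.14 (adjusted p = 0.0155) but had an adjusted p of 0.146 after scaling by the array median. Car9, often used as a hypoxia marker, was at 0.28 (interval -0.63 to 1.19). Erythropoietin, the HIF target for which such drugs are given in anaemia, was not tested, because only 1 DKD and 1 treated array had its probe well above background. Of these genes, Stc2 (1.40) and Vegfa (0.84) passed with slide row as a term, and Ddit4 (1.06), Slc2a1 (0.31) and Egln2 (-0.46) did not. Normexp and the deposited table both gave 0.62 for Stc2.

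Transcripts of glycolysis genes were raised at many steps in the treated kidneys. Among 21 genes there were 12 rises and 0 falls, against 8.76% of all genes that rose, with a median change of 0.49. In DKD mice 6 rose, and between treated and DKD mice 11 rose, where 5.48% and 0.609% of all genes rose. Aldoc, an aldolase, had levels of 1.14, 1.31 and 1.82 in sham mice, 2.01, 2.43 and 2.66 in DKD mice and 2.88, 3.27 and 3.73 in treated mice. The 3 groups formed 3 steps without overlap. Its change from sham was 1.98 ± 0.14, 3.94-fold (adjusted p = 1.98e-09), of which DKD minus sham was 1.00 and treated minus DKD 0.97. Pfkl, a subunit of phosphofructokinase, the committing step, rose by 1.58 ± 0.12 with values of 0.42 in DKD mice and 1.17 between treated and DKD mice. Its sham arrays had a median of 0.11 and reached 0.28, while treated arrays lay at 1.36 to 2.25.

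Hexokinase 2 and phosphofructokinase P rose against sham while their DKD minus sham values, -0.61 and -0.03, did not pass. Hk2 was dim, at -5.91 to -5.08 in sham mice, -7.86 to -4.85 in DKD mice and -5.00 to -3.36 in treated mice. It was well above background on 4 of 6 sham, 3 of 9 DKD and 9 of 9 treated arrays. Hk2 rose by 1.23 ± 0.37 (adjusted p = 0.0248). That call was lost with normexp (0.15), quantile normalization (1.10) and without sham 2 or 3, while its value with slide row was 2.66 and passed. Pfkp rose by 1.11 ± 0.16 (adjusted p = 8.62e-05), from 1.30 to 2.10 in sham mice to 2.44 to 3.18 in treated mice, and treated minus DKD was 1.13. Eno2, an enolase, rose by 1.41 ± 0.18, or by 0.56 with normexp and 0.55 in the deposited table. With slide row as a term 7 of the 21 rose, Aldoc, Pfkl, Eno2, Hk2 and Pfkp among them.

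**Figure D3:**
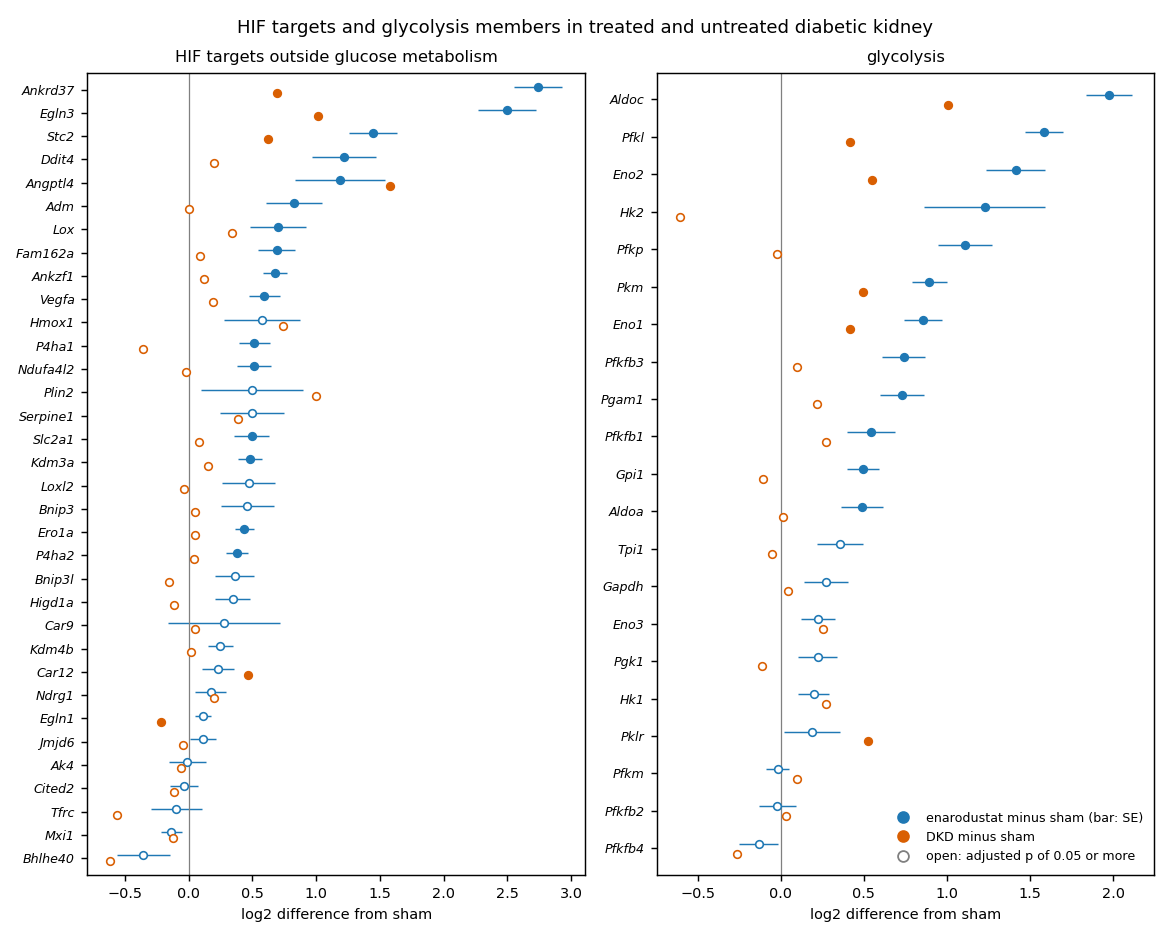
Change from sham (log2) of each tested HIF target outside glucose metabolism (left) and glycolysis gene (right) in enarodustat-treated mice (blue, bar of 1 SE) and in DKD mice (orange), filled where the adjusted p was under 0.05. Blue points lie to the right of orange points for most HIF targets and for Pfkl, Hk2 and Pfkp, and Aldoc was raised in both groups.

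Downstream of glycolysis, single genes rose or fell. Of 10 genes for lactate transport and lactate dehydrogenases, Slc16a3 rose, Ldhd fell and 8 did not pass, where 8.76% of all genes rose and 6.76% fell. Ldhd, the mitochondrial dehydrogenase of D-lactate, fell by 0.94 on the log2 scale (SE 0.19, adjusted p = 0.0016), from 6.75 to 7.15 in sham mice to 5.41 to 6.52 in treated mice, and the groups did not overlap. Ldha, which makes L-lactate, was at 0.36 (interval 0.09 to 0.63, adjusted p = 0.0625). Of 14 genes that control pyruvate dehydrogenase 2 rose, against 8.76% of all genes, and 12 did not pass. The 2 were the kinases Pdk1 and Pdk4, which switch it off. Pdk1, a HIF target, rose by 1.88 ± 0.38, with values of 0.85 in DKD mice and 1.02 between treated and DKD mice, neither of which passed. Pdk4, a PPAR alpha and FOXO target, rose by 1.70 ± 0.34 from a narrow sham range of -0.41 to -0.11, and the DKD change was 1.66. Treated minus DKD was 0.04 for Pdk4 (interval -0.59 to 0.67). With the row term Ldhd passed (-1.13), and Pdk1 (0.90) and Pdk4 (0.76) did not, so 0 of the 14 passed (limma; 1 lower at an unadjusted p under 0.05).

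Of 15 genes of glycogen metabolism 5 rose, against 8.76% of all genes. Gys1, the muscle-type glycogen synthase, rose by 0.55 ± 0.10 (adjusted p = 0.000775), from 0.25 to 0.74 in sham mice to 0.84 to 1.46 in treated mice. Ppp1r3g and Ppp1r3c, subunits that bring a phosphatase to glycogen, rose by 1.33 and 1.14. Ppp1r3g was well above background on 4 of 9 DKD arrays, and treated minus DKD was 2.39 (adjusted p = 0.000162). Both calls against sham ended with normexp (0.20 and 0.18), and Gys1 had an adjusted p of 0.0575 after array median scaling. Allowing for slide row, 0 of the 15 passed (limma; 3 higher and 1 lower at an unadjusted p under 0.05), beside 890 of all 17736 genes. Txnip, a glucose-induced inhibitor of glucose uptake, was at 0.47 (interval 0.12 to 0.82, adjusted p = 0.0614) against 0.70 in DKD mice.

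Genes of the mitochondrial core had small changes. None of 19 tricarboxylic acid cycle genes, 36 subunits of respiratory complex I and 36 of complexes III to V passed. At an unadjusted p under 0.05 (limma) 1, 0 and 0 were higher and 5, 2 and 1 lower, beside 5262 of all 17736 genes in either direction. Their median changes were -0.01, -0.07 and -0.09, with single changes between -0.36 and 0.26. Under the row term the medians were -0.30, -0.41 and -0.45, and 1 complex I gene passed, lower. The PPAR alpha targets included many that rose: 11 of 28 rose and 1 fell, against 8.76% and 6.76% of all genes. The median change was 0.56. With 1 array left out, the count of falls ranged from 0 to 2. In DKD mice 15 rose and 1 fell, against 5.48% and 6.12% of all genes. None passed between treated and DKD mice (1 higher at an unadjusted p under 0.05). Among them were Fabp1, a fatty acid carrier of liver and tubule, at 2.02 ± 0.42, and Cyp4a10, which hydroxylates fatty acids at their far end, at 1.90 ± 0.45. Cyp4a10 lay at 1.41 to 2.42 in sham mice and at 2.18 to 4.90 in treated mice, with 8 of 9 treated arrays above all sham arrays. Acot2, a mitochondrial acyl-CoA thioesterase, rose by 0.98 ± 0.21. Normexp ended the call of Fabp1 (0.39). In the fit with slide row none of the 28 passed (2 higher and 3 lower at an unadjusted p under 0.05) and the median was 0.30.

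Against 8.76% of all genes that rose, 3 of 22 genes of mitochondrial fatty acid oxidation did. Among them were the thiolase Acaa2 (0.88 ± 0.24) and Cpt1b (0.50 ± 0.12), the muscle form of the enzyme that admits fatty acids to mitochondria. Both calls ended after array median scaling, with adjusted p of 0.0549 and 0.0905. Of 7 genes of ketone body metabolism, 1 rose and Bdh1 and Aacs fell, where 8.76% of all genes rose and 6.76% fell. Bdh1, which interconverts the main ketone bodies, fell by 0.79 on the log2 scale (adjusted p = 0.00129), from 4.78 to 5.19 in sham mice to 3.62 to 4.69 in treated mice. Aacs, which spends ketone bodies on lipid synthesis, was at -0.76 and missed the threshold without enarodustat 3 or 8 or sham 3, 4 or 5. Of 27 peroxisome genes 4 fell, against 6.76% of all genes, and 0 rose. The falls were led by Amacr (-0.67), which handles branched fatty acids. None of the genes of these 3 lists passed with slide row as a term (limma), where 1, 0 and 0 were higher and 4, 5 and 9 lower at an unadjusted p under 0.05.

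Cholesterol synthesis genes fell at many steps. Of 24 cholesterol genes 12 fell and 0 rose, against 6.76% of all genes that fell, with a median change of -0.38, and all 9 treated arrays had a list mean below that of all sham arrays. In DKD mice 11 of 24 fell, against 6.12% of all genes. None passed between treated and DKD mice, where 0 had an unadjusted p under 0.05. Idi1, an isomerase of the isoprenoid steps, was at 3.29, 3.35 and 3.45 in sham mice and 1.45, 2.33 and 2.78 in treated mice. The ranges lay well apart, and the change was -1.16 ± 0.22 (adjusted p = 0.000848). The count of 12 was 5 without sham 2, 6 without sham 3 and 7 without enarodustat 1. With the row term none of the 24 passed, 15 were lower at an unadjusted p under 0.05, and the median was -0.59.

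Of 29 genes of lipogenesis and lipid droplets 8 fell and 2 rose, against 6.76% and 8.76% of all genes, with a median of -0.03. Srebf1, the transcription factor of lipogenesis, fell by 1.08 on the log2 scale (SE 0.13, adjusted p = 1.15e-05), from 2.80 to 3.56 in sham mice to 1.94 to 2.57 in treated mice, and the DKD change was -1.14. Its call held with slide row as a term. The desaturase Scd1 fell by 1.00. Elovl6, which lengthens saturated fatty acids, rose by 0.90 ± 0.18 without overlap, from -0.67 to -0.11 in sham mice to a median of 0.48 and a highest level of 1.40 in treated mice. Fasn, fatty acid synthase, fell by 0.72 but kept that call in 5 of 15 fits that left out 1 array, and it ended in the deposited table, with quantile normalization and with the replicate block. Scd1 (adjusted p = 0.137), Elovl6 (adjusted p = 0.0613) and Fasn (-0.34) did not pass with slide row, where 2 of 29 fell and 0 rose. The 2 rises were 1 without sham 5.

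Transcripts of several amino acid breakdown genes were lower, while that of Kynu was higher. Of 21 genes of branched-chain amino acid degradation 5 fell and 0 rose, against 6.76% of all genes that fell. Ivd, which oxidises the leucine product isovaleryl-CoA, fell by 0.82 on the log2 scale (SE 0.14, adjusted p = 0.000356) without overlap, and passed with slide row (-0.98). Mccc1, the next carboxylase, fell by 0.70. The count of 5 was 3 without sham 2 or without sham 3. Of 19 kynurenine and NAD genes 2 rose and 5 fell, against 8.76% and 6.76% of all genes. Kynu rose, as given above, while Afmid, which makes kynurenine, fell by 1.05 on the log2 scale (SE 0.14, adjusted p = 3.64e-05). Afmid lay at 1.56 to 2.37 in sham mice and at 0.56 to 1.20 in treated mice, and passed with slide row (-1.26). Aadat, which converts kynurenine to kynurenic acid, fell by 1.09. The count of 5 falls was 3 without sham 2 or 3. Slc6a12, the betaine transporter of the renal medulla, rose by 2.07 ± 0.26 (adjusted p = 1.55e-05) from -2.72 to -1.21 in sham mice to -0.81 to 0.48 in treated mice. Cbs, which directs homocysteine to cysteine, fell by 0.63. Allowing for slide row, 2 of the 21 branched-chain genes and 2 of the 19 kynurenine genes fell, Mccc1 (-0.84), Aadat (-1.10) and Cbs (-0.64) did not pass, and Slc6a12 (2.27) did.

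Cell cycle genes showed the highest share of rises of any list. There were 28 of 34 that rose and 0 that fell, against 8.76% of all genes that rose, with a median change of 1.08. In DKD mice 17 rose, against 5.48% of all genes, with a median of 0.65. None passed between treated and DKD mice, where the median was 0.43. There 15 were higher at an unadjusted p under 0.05 (limma), a level at which the share of all genes was not counted. The list mean on the treated arrays was 0.74 to 1.46 above the sham mean, clear of the sham range of -0.07 to 0.14, while DKD arrays ran from -0.26 to 1.20. Cdc20, an activator of the anaphase-promoting complex, had levels of -1.42, -1.28 and -0.95 in sham mice, -1.09, -0.08 and 0.87 in DKD mice and -0.26, 0.36 and 1.41 in treated mice. No treated array overlapped the sham range, and the change was 1.82 ± 0.27 (adjusted p = 9.27e-05). The cyclins Ccnb1 and Ccnb2 rose by 1.80 and 1.67. Bub1, a spindle checkpoint kinase, was well above background on 9 of 9 treated and 0 of 6 sham arrays and was at least 3.01-fold higher in treated mice (adjusted p = 0.000916). This bound sets the treated mean against the higher, on each sham array, of the gene's own signal and the lowest signal well above background. Ccnb1 rose by 0.80 with normexp and 0.79 in the deposited table. Allowing for slide row, 23 of 34 rose and the median was 1.43.

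Targets of p53, the factor that halts the cycle after damage, rose as well: 15 of 22 rose, against 8.76% of all genes. None fell, and the median change was 0.43. In DKD mice 12 rose, against 5.48% of all genes. None passed between treated and DKD mice (4 higher and 1 lower at an unadjusted p under 0.05). Cdkn1a, the cell cycle inhibitor p21, had levels of -2.47, -1.78 and -1.11 in sham mice and -0.58, 0.38 and 1.26 in treated mice. The groups stood apart, with a change of 2.12 ± 0.29, 4.35-fold (adjusted p = 5.11e-05). Phlda3, an inhibitor of AKT, rose by 1.70 ± 0.19, and its DKD change was also 1.70. The treated minus DKD interval of Phlda3 was -0.34 to 0.35. Eda2r, a receptor of the TNF family, was well above background on 9 treated and 0 sham arrays and was at least 2.17-fold higher (adjusted p = 4.55e-06). Ckap2, a mitotic protein, rose by 2.11 ± 0.29, or by 0.93 with normexp and 0.92 in the deposited table. Under the row term 7 of 22 rose, including Eda2r, Ckap2 and Phlda3, and Cdkn1a did not (1.29, adjusted p = 0.0924).

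Of 26 genes of tubular injury and repair 11 rose and 1 fell, against 8.76% and 6.76% of all genes. Krt19, a keratin of dedifferentiated tubules, rose by 1.59 ± 0.22 (adjusted p = 6.25e-05) and Gdf15, a stress-induced hormone, by 1.18 ± 0.24. Il34, a ligand of the macrophage receptor Csf1r, fell by 1.73 on the log2 scale (SE 0.32, adjusted p = 0.000753), from 2.04 to 3.02 in sham mice to -0.50 to 2.35 in treated mice. The classical markers Havcr1 (0.37, interval -0.63 to 1.37) and Lcn2 (0.79, interval 0.16 to 1.41, adjusted p = 0.0802) did not pass. Krt19 and Il34 passed with slide row as a term (1.83 and -2.10), and 3 of 26 did in all. Normexp gave 0.77 for Krt19.

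Of 22 interferon response genes 7 rose and 0 fell, against 8.76% of all genes that rose, with a median of 0.37. Between treated and DKD mice 2 rose, beside 0.609% of all genes. Rsad2, the antiviral protein viperin, had levels of -0.55, -0.17 and 0.05 in sham mice, -0.26, 0.13 and 0.48 in DKD mice and 0.28, 0.72 and 1.23 in treated mice. Treated and sham mice did not overlap, and the change was 0.96 ± 0.14 (adjusted p = 0.000126), with 0.59 between treated and DKD mice (adjusted p = 0.0315). Oasl2 rose by 0.76 ± 0.14 and by 0.52 between treated and DKD mice. Both passed with slide row as a term (1.10 and 0.81). Of 16 inflammatory mediators 2 rose, Tnfaip3 (0.60, or 0.39 with normexp), which restrains NF-kB, and the adhesion molecule Icam1 (0.53), and both calls ended after array median scaling (adjusted p of 0.0666 and 0.12). Icam1 was at 0.13 with normexp and 0.12 in the deposited table, which also ended its call, as did leaving out sham 5. Of the interferon genes 2 of 22 and of the mediators 0 of 16 passed with slide row (limma; 3 mediators higher and 1 lower at an unadjusted p under 0.05). Against 8.76% of all genes, 5 of 24 matrix and fibrosis genes rose, including the collagen cross-linker Lox (0.70), the proteoglycan Lum (0.73) and Col6a1 (0.54). These 3 calls ended after array median scaling (adjusted p of 0.0995, 0.0817 and 0.154). Lox and Lum were both at 0.20 with normexp and at 0.19 in the deposited table, and missed the threshold in both. That count was 2 or 3 without any of sham 2 to 6 or enarodustat 1, 4, 7 or 8, and 0 of 24 rose with slide row as a term (10 at an unadjusted p under 0.05).

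Endothelial markers rose in treated mice. Of 16 tested 10 rose and 0 fell, against 8.76% of all genes that rose, with a median of 0.39. In DKD mice 2 rose, and between treated and DKD mice 7 rose and 0 fell, where 5.48% and 0.609% of all genes rose. Cdh5, the cadherin of endothelial junctions, had levels of -0.26, -0.07 and 0.06 in sham mice, -0.20, 0.14 and 0.35 in DKD mice and 0.23, 0.55 and 0.84 in treated mice. All treated arrays lay above all sham arrays, and the change was 0.64 ± 0.09 (adjusted p = 9.15e-05). Esam, Tek and Plvap rose by 0.60, 0.53 and 0.50, and the call of Plvap ended after array median scaling (adjusted p = 0.0817). In whole tissue more cells of a type and more RNA per cell cannot be told apart. Fabp4, a fatty acid carrier of capillary endothelium, adipocytes and macrophages, rose by 1.22 ± 0.10 (adjusted p = 1.79e-08), with 0.70 in DKD mice and 0.52 between treated and DKD mice. Of 10 adipocyte markers 6 were bright enough to test, Fabp4 alone passed, and Adipoq, the defining marker, was well above background on 0 arrays. Apln, a peptide of sprouting vessels, was at -1.42 to -0.95 in sham mice, -1.80 to -0.79 in DKD mice and -0.69 to 0.11 in treated mice. Its change was 0.83 ± 0.15 against sham and 0.96 against DKD mice. Of 18 genes of VEGF and angiopoietin signalling, Apln and Vegfa among them, 6 rose and 0 fell against sham and 3 rose against DKD mice. In the fit with slide row 3 of 16 endothelial markers rose, and Cdh5 (0.55), Tek (0.64) and Fabp4 (1.09) passed while Apln (0.33) did not.

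Of 25 genes of BMP signalling 6 rose and 3 fell, against 8.76% and 6.76% of all genes. Besides Grem1, the activin and BMP antagonist Fst rose by 1.08 ± 0.19 and the ligand Bmp3 by 1.09 ± 0.18, and Bmp6, the ligand that couples iron to hepcidin in the liver, rose by 0.68. Their DKD minus sham values were 0.91, 0.90 and 0.89, and none passed between treated and DKD mice. Grem1 and Bmp3 passed with slide row as a term, Bmp3 at 1.24, while Fst (1.07) and Bmp6 (0.65) did not. The 3 falls were 1 without sham 2, and 1 with slide row. Normexp ended the call of Bmp3 (0.12). Fst rose by 0.59 with normexp and 0.56 in the deposited table.

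Transport genes of the nephron moved in both directions. Of 9 glucose transporters 5 rose and 0 fell, against 8.76% of all genes that rose. Slc2a2, the basolateral glucose exit GLUT2, rose by 0.61 ± 0.10 (adjusted p = 0.000371), from 0.03 to 0.43 in sham mice to 0.67 to 1.09 in treated mice, while DKD mice lay at 0.78 to 1.48. Treated minus DKD was -0.26 (interval -0.45 to -0.07, adjusted p = 0.27). The count of 5 was 2 without sham 2 and 3 without sham 1, sham 3, enarodustat 1 or enarodustat 4, and 0 with slide row (1 at an unadjusted p under 0.05). Of 24 proximal tubule markers 8 fell and 1 rose, against 6.76% and 8.76% of all genes, with a median of -0.28. Slc22a6, the organic anion transporter OAT1, had levels of 7.35, 7.56 and 7.80 in sham mice and 6.58, 6.89 and 7.10 in treated mice. The ranges did not overlap, and the change was -0.67 ± 0.12 (adjusted p = 0.000707). Slc17a3, a urate and phosphate transporter, fell by 0.68 and Slc13a3, a dicarboxylate transporter, by 0.47. The count of 8 was 5 without sham 3, and the 1 rise was 0 without sham 1, 3 or 4 or enarodustat 3. With the row term 5 of 24 fell, among them these 3 genes.

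In the collecting duct the water channel Aqp2 rose by 0.93 ± 0.14 (adjusted p = 0.000101), from 2.21 to 2.90 in sham mice to 2.97 to 3.82 in treated mice. The DKD value was 0.91. Against 8.76% of all genes that rose, 7 of 11 principal cell markers rose and 0 fell. The rises included Elf5 (0.95, or 0.32 with normexp), a transcription factor of these cells, and the vasopressin receptor Avpr2 (0.56, adjusted p = 0.125 after array median scaling). That count was 3 without sham 2, 4 without sham 1 and 1, Aqp2, with slide row as a term. Of 12 intercalated cell markers 2 fell, against 6.76% of all genes, and 10 did not pass. Slc26a4, the chloride and bicarbonate exchanger pendrin, fell by 0.66 ± 0.12 on the log2 scale and Foxi1 by 0.48. Neither held with slide row (adjusted p of 0.112 and 0.0874), so 0 of 12 passed there (limma; 2 lower at an unadjusted p under 0.05), and the list median was 0.05 against -0.24 without that term. Of 12 markers of thick limb and distal tubule 3 rose and 2 fell, against 8.76% and 6.76% of all genes. Calb1, a calcium buffer of the distal tubule, rose by 0.76 ± 0.13 and Cldn10, a paracellular sodium pore, fell by 0.57. With that term Cldn10 was at -1.09 and passed, Calb1 (0.66) did not, and 2 of the 12 fell and 0 rose.

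Hormone-linked genes also differed. Pth1r, the parathyroid hormone receptor, fell by 0.65 on the log2 scale (SE 0.12, adjusted p = 0.000622), from 6.03 to 6.37 in sham mice to 5.32 to 5.95 in treated mice, and passed with slide row (-0.91). Of the 21 genes of phosphate, calcium and vitamin D handling 7 rose and 5 fell, against 8.76% and 6.76% of all genes. The 7 rises were 2 without sham 3 and 4 without sham 1, 2 or 5 or enarodustat 1, 4, 5 or 7. The 5 falls were 2 without sham 2 and 3 without sham 3 or 4 or enarodustat 1, 3, 7 or 8. Ace, which makes angiotensin II, fell by 1.01 on the log2 scale (SE 0.17, adjusted p = 0.000286), from 2.11 to 2.56 in sham mice to 0.87 to 1.71 in treated mice, and passed with slide row. Its substrate source, Agt, rose by 0.86 ± 0.23. Slc38a3, which brings glutamine into the tubule, rose by 0.75 ± 0.17, with an adjusted p of 0.0615 after array median scaling. Neither Agt (0.66, adjusted p = 0.301) nor Slc38a3 (0.38, adjusted p = 0.398) passed with slide row, and of the phosphate, calcium and vitamin D genes 0 rose and 2 fell there.

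Genes that are higher in male than in female mouse kidney were lower. Of 22 tested 14 fell and 0 rose, against 6.76% of all genes that fell. The median change was -0.75, and all 9 treated arrays had a list mean below all sham arrays. In DKD mice 14 of the 22 fell, against 6.12% of all genes, with a median of -0.83. None passed between treated and DKD mice, where the median was 0.19. There 2 were higher and 1 lower at an unadjusted p under 0.05. Gusb, the androgen-responsive beta-glucuronidase, had levels of 4.11, 4.50 and 5.21 in sham mice, 0.94, 1.84 and 3.33 in DKD mice and 1.65, 2.42 and 4.06 in treated mice. Treated arrays approached but did not enter the sham range. Gusb fell by 1.87 on the log2 scale (SE 0.40, adjusted p = 0.00276), and treated minus DKD was 0.84 (interval 0.10 to 1.58, adjusted p = 0.366). Cyp4a12a, which hydroxylates arachidonic acid, fell by 1.35 on the log2 scale (SE 0.35). Its near-identical neighbour Cyp4a12b fell by 1.38, and the probes of such paralogs may share signal. Of 15 genes higher in females 4 rose and 1 fell, against 8.76% and 6.76% of all genes. The 4 were 2 without sham 3 or 5 or enarodustat 3 or 8. With slide row there were 0 (limma, 4 higher at an unadjusted p under 0.05). Allowing for slide row, 3 of the 22 male-biased genes fell and the median was -0.74, while Gusb, Cyp4a12a (-0.66) and Cyp4a12b (-0.71) did not pass.

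Of 24 Cyp2 cytochromes 5 rose and 5 fell, against 8.76% and 6.76% of all genes. Cyp2c23, which makes epoxides of arachidonic acid in the kidney, rose by 1.70 ± 0.29 (adjusted p = 0.000392) and Cyp2d10 by 1.10 ± 0.23, opposite to Cyp2b10 and Cyp2b9. Normexp gave 0.90 for Cyp2c23. With slide row neither rise held (adjusted p of 0.0684 and 0.113), and 0 of the 24 rose and 2 fell. Of 22 glutathione transferases 2 rose, near the 8.76% of all genes: Gsta2 (1.76 ± 0.51) and Gsto1 (0.81 ± 0.21). Gsta2 missed the threshold without sham 4, and Gsto1 after array median scaling. Gsta2 also missed it with the replicate block (adjusted p = 0.0642), and with slide row Gsta2 (0.80) and Gsto1 (0.65) both did, so 0 of 22 passed (limma; 0 at an unadjusted p under 0.05). Of 21 NRF2 targets 3 rose and 3 fell, against 8.76% and 6.76% of all genes. With slide row 0 of these 21 passed (limma; 3 higher and 7 lower at an unadjusted p under 0.05). Of 25 genes of the responses to unfolded protein and to integrated stress 9 fell and 1 rose, against 6.76% and 8.76% of all genes. Sel1l, which helps remove misfolded proteins, fell by 0.72 on the log2 scale (SE 0.11, adjusted p = 0.000209), from 3.81 to 4.45 in sham mice to 3.14 to 3.70 in treated mice. The chaperones Creld2 and Pdia3 fell by 0.66 and 0.54. The 9 falls were 5 without sham 4, enarodustat 1 or enarodustat 8, and the 1 rise was 0 without sham 1 or 2. With slide row 3 of 25 fell, Creld2 (-0.98) among them, and Sel1l (adjusted p = 0.0761) and Pdia3 (adjusted p = 0.0999) did not pass.

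Of 17 markers of T, B and NK cells 4 fell, against 6.76% of all genes, 0 rose and 13 did not pass. The median was -0.45, and 7 of 9 treated arrays had a list mean below all sham arrays. Gzma, a protease of cytotoxic cells, had levels of -1.32, -0.69 and -0.45 in sham mice and -2.38, -1.87 and -1.18 in treated mice. Only 1 treated array, enarodustat 5, entered the sham range. The change was -1.13 ± 0.18 (adjusted p = 0.000187), and DKD minus sham was -1.26. Cd3e, a T cell receptor subunit, fell by 0.49 and kept that call in 8 of 15 fits that left out 1 array. Gzmb, another granule protease, fell by 1.26, but its call ended with normexp (-0.14), slide row (-1.84) and the replicate block. The 4 falls were 7 without enarodustat 5. Under the row term 2 of 17 fell, Gzma (-1.40) and Cd3e (-0.86). Of 19 macrophage and neutrophil markers 1 rose and 1 fell, against 8.76% and 6.76% of all genes, and 17 did not pass. Csf1r fell by 0.65 ± 0.14 on the log2 scale. Lyz2 rose by 0.79 but kept that call in 3 of 15 fits that left out 1 array. With slide row 0 of the 19 passed (limma; 2 higher and 1 lower at an unadjusted p under 0.05).

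Of 8 erythroid markers none passed against sham, with a median of 0.05. The DKD minus sham median was -0.84, with 4 of 8 lower, against 6.12% of all genes. The treated minus DKD median was 0.73, with 1 higher, against 0.609% of all genes. Relative to the sham mean, list means lay at -0.35 to 0.35 on sham, -1.22 to 0.07 on DKD and -0.84 to 0.32 on treated arrays. Hemoglobin and other erythroid transcripts come from red cell precursors and from blood in the tissue. At an unadjusted p under 0.05 (limma) 1 of 8 was lower against sham, beside 5262 of all 17736 genes in either direction. Between treated and DKD mice 5 of 8 were higher at that level, where the share of all genes was not counted.

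Some genes passed between DKD and sham mice and, with the opposite sign, between treated and DKD mice, where 127 of 17736 genes (0.716%) passed. By size of the DKD change, the leading 3 of each kind were Utp20, Rab6b and Blnk, raised in DKD, and Zdhhc22, Mospd4 and Defb19, lowered in DKD. They were chosen for this pattern, so the values are a description. Utp20, a factor of ribosome assembly, had medians of 0.99 in sham, 2.12 in DKD and 1.45 in treated mice, with treated minus sham at 0.39 (interval 0.07 to 0.72). Zdhhc22, a palmitoyltransferase, had medians of -0.94, -2.26 and -1.19, and treated minus sham was -0.41 (interval -0.89 to 0.07). For the other 4, treated minus sham lay between -0.27 (Mospd4) and 0.20 (Rab6b). None of the 6 passed against sham (limma), though Utp20 had an interval above 0.

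Bounds were taken for passing genes whose tested probe was well above background on no array of 1 group. It also had to be so on 50% or more of the other group's arrays, with a bound over 1-fold. Clone and predicted-gene symbols were left out. This gave 41 genes, 39 dim in sham and 2 in treated mice, and for 36 every probe of the gene was dim there. Absence on 6 sham arrays is a weaker demand than on 9 treated arrays, so 39 and 2 are not comparable. The share of all genes with this pattern was not counted. Besides Bub1 and Eda2r, Ssty1 and Fbxw14, measured on 6 of 9 treated arrays each, were at least 2.81-fold and 2.80-fold higher. Fbxw14 missed the threshold without enarodustat 3 or sham 1 or 3. In the other direction Tgm7, measured on 5 of 6 sham and 0 of 9 treated arrays, was at least 1.36-fold lower and kept its call in 6 of 15 fits that left out 1 array. Normexp ended the calls of these 5 genes, and with slide row as a term Bub1 and Eda2r passed.

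Further gene groups had rises and falls in single members, where 8.76% of all genes rose and 6.76% fell. Of 13 genes of gluconeogenesis and fructose metabolism 1 rose, Fbp2 (1.20), and 1 fell, a call kept in 6 of 15 fits that left out 1 array. Pck1, the gate of gluconeogenesis, was at 0.28 (interval -0.06 to 0.62) against 0.79 in DKD mice. Of 8 pentose phosphate genes 1 rose, Pgd (0.36, or 0.22 and not passing after array median scaling). Of 13 Cyp4 hydroxylases 3 rose, or 5 without enarodustat 2 or 6, and 3 fell. Of 19 iron genes 3 rose and 3 fell, and Slc39a8, a carrier of zinc, iron and manganese, fell by 0.82 on the log2 scale (SE 0.10, adjusted p = 6.93e-06) without overlap and passed with slide row (-0.65). Of 27 genes of water and distal sodium handling 7 rose and 1 fell, and the 7 were 4 without sham 1 or 2. Sgk1, a kinase that holds sodium channels at the membrane, was among the rises at 0.96 ± 0.20. Of 26 genes of insulin and IGF signalling 2 rose and 2 fell, and of 19 clock genes the output factors Tef (-0.53) and Hlf (-0.46) fell. Both clock calls ended in the deposited table and with quantile normalization, and the count of 2 was 0 without sham 2 or 4 and 1 without sham 3. Hlf also missed the threshold with normexp and with the replicate block. Of 14 podocyte markers 1 rose and 1 fell, of 13 mesangial and smooth muscle markers 2 rose, and of 7 adrenal markers 1 rose. The adrenal rise kept its call in 6 of 15 fits that left out 1 array, and the call ended with normexp and in the deposited table. With slide row none of Fbp2 (0.90), Pgd (0.23), Sgk1 (0.65), Tef (-0.13) and Hlf (-0.62) passed. There 0 of the gluconeogenesis, pentose phosphate, clock and adrenal genes passed (limma; 4, 1, 4 and 1 at an unadjusted p under 0.05 in either direction). Of the others, with rises first, 0 and 1 of the Cyp4 genes, 0 and 2 of the iron genes, 1 and 1 of the water and sodium genes, 1 and 1 of the insulin and IGF genes, 0 and 1 of the podocyte markers and 0 and 1 of the mesangial and smooth muscle markers passed.

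**Figure D4:**
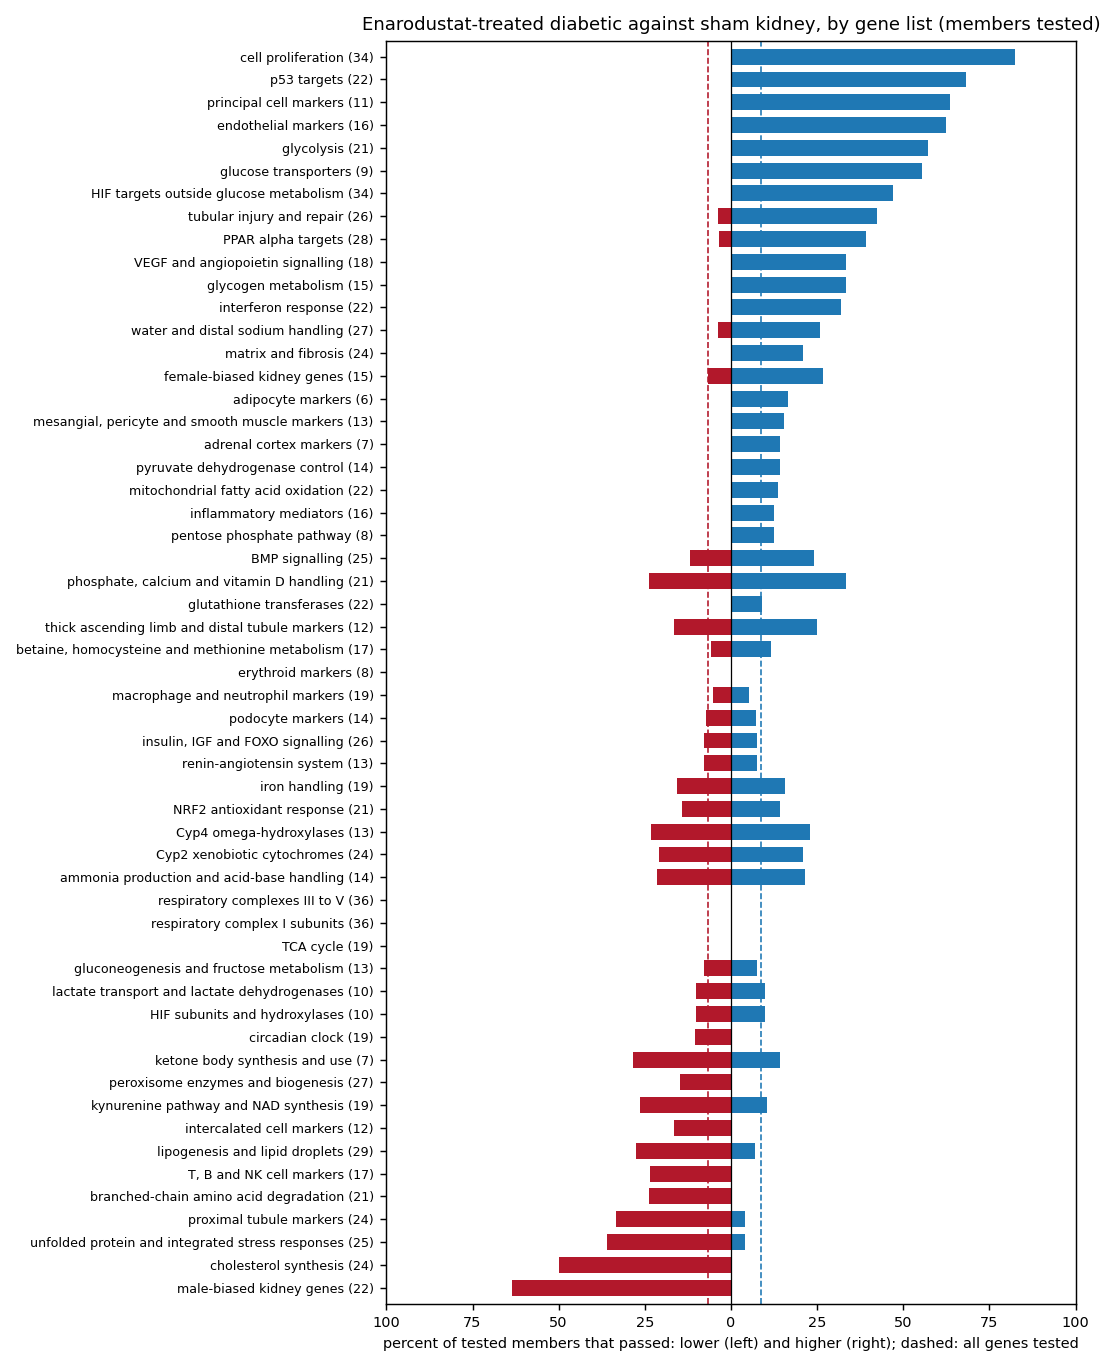
Percent of the tested members of each gene list (number in brackets) that passed an adjusted p of 0.05, higher to the right and lower to the left, with dashed lines at 8.76% and 6.76% for all genes tested. Cell proliferation, p53 targets, principal cells, endothelial markers, glycolysis and HIF targets lie far to the right, and male-biased genes and cholesterol synthesis far to the left.

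The slide row term moved gene groups unequally. With the row term the median change of cell proliferation was 1.43 against 1.08 without it, that of male-biased genes was -0.74 against -0.75, and that of p53 targets 0.49 against 0.43. The median of HIF targets was 0.20 against 0.48 and that of PPAR alpha targets 0.30 against 0.56. The median of erythroid markers was 0.54 against 0.05. The row term rests on 6 against 3 DKD arrays and was estimated from them alone, and whether row itself had a part in any of these results was not tested.

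**Figure D5:**
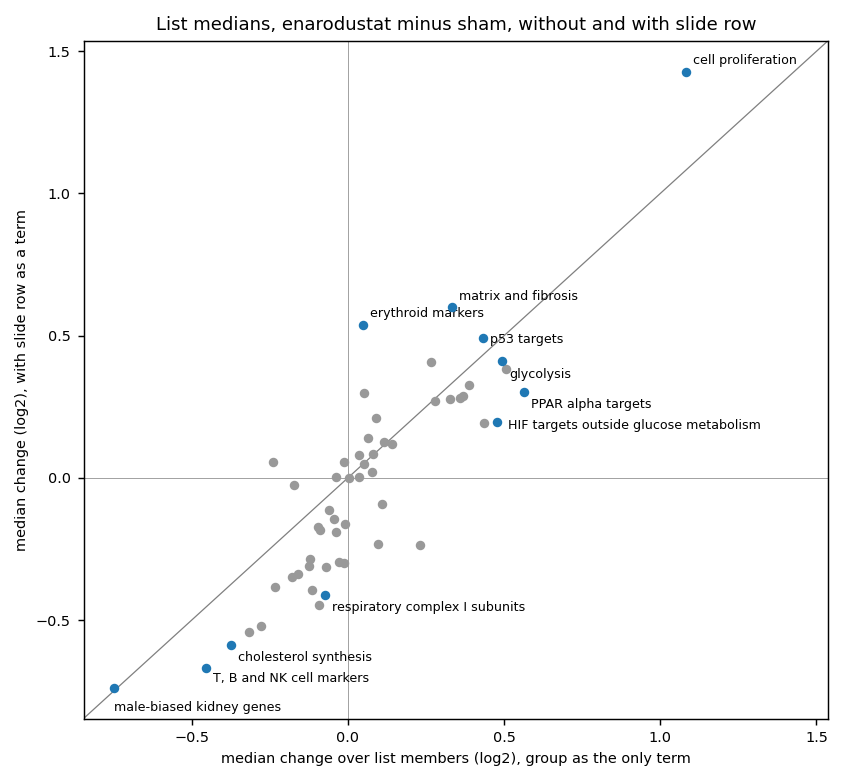
Median change over the members of each gene list (log2, treated minus sham), with group as the only term (horizontal) against the fit with slide row as a second term (vertical), and a line of equality. Cell proliferation lies above the line at 1.43, respiratory complex I and cholesterol synthesis lie below it, and male-biased genes lie on it.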

How the data were processed

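Kidney RNA of 24 mice was measured on single-colour Agilent arrays (design 074809), 1 per mouse. The deposited scanner files hold intensity per spot, extracted by the authors with Feature Extraction (12.1.1.1 per the file headers, 11.5.1.1 per the submitters' processing notes, which also name limma). Processed signals are background-subtracted, per the file headers. The authors' deposited value table holds log2 intensity of 31409 probes. It was matched by normexp with offset 50 and quantile normalization of the scanner medians, with 429 of 753816 values off by over 0.05.

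Control spots and 21 outlier values among genes tested were dropped, spots of a probe averaged, and log2 signals scaled to each array's 75th percentile. A gene was its brightest named probe, and 17736 genes well above background on at least 6 arrays were tested. R 4.3.3 and limma 3.58.1 (lmFit, eBayes) fitted the group means over all 24 arrays, with Benjamini-Hochberg adjustment and a threshold of 0.05. The fit was tested on simulated data. The DKD arrays share the estimate of the spread.

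The members and lists were chosen with earlier results of these data known. Named genes were the 12 largest rises and falls well above background on 50% or more of the arrays in each group, up to 4 passing members of each list, fixed genes, up to 4 bounded genes and up to 3 genes of opposite sign per direction. Some genes that met this rule are not reported here, though they stay in the counts. Alternatives were other background corrections, scalings and filters, slide and row terms, a replicate block and leaving out each array. Using scanner medians in normexp, and refitting the lists with each array left out, were chosen after seeing the data. The number of arrays limits the precision. The labels name separate samples, so p-values measure the spread between them.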

Additional observations from a re-analysis of the deposited data

Results flagged for a closer look

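In 474 checks of 237 genes and gene lists, sham or treated, 19 single arrays lay far from the rest of their group. The cutoff marks about 1 in 20 groups of normal values. The checks share genes and arrays, so whether 19 flags differ from chance cannot be told. Values are log2 levels, or list means relative to the sham mean.

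Among metabolic genes, Aldh1a1 was -0.0504 in enarodustat 7, Cyp2c23 -2.49 in sham 3, Aldoc 1.82 in sham 3 and Scp2 6.55 in sham 6. Among p53 targets, Eda2r was -6.25 and Phlda3 0.54, both in sham 1. Among injury, matrix and stress genes, Havcr1 was -1.78 in enarodustat 8, Lcn2 -2.88 in sham 2 and 0.23 in enarodustat 1, Lum -4.13 in sham 6 and Pdia3 4.34 in sham 4. Gzma was -1.18 and Defa2 -6.73 in enarodustat 5. Ssty1 was -6.14 in sham 5 and Rab6b -0.77 in enarodustat 6. The mean of cell proliferation was 0.14 in sham 5, that of the renin-angiotensin list -0.11 in sham 2, that of thick limb and distal tubule markers 0.32 in enarodustat 5, and that of T, B and NK cell markers 0.15 in enarodustat 5.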

How the results depend on the processing

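The count of 2753 passing genes stayed within 1.5 times under background correction, scaling, filter, probe and slide block alternatives, from 2121 (normexp) to 3464 (slide as a fixed block). Leaving out 1 array gave 1968 (without sham 2) to 3042 (without enarodustat 9). Within slides 1, 2 and 3, with 2 against 3 arrays each, 36, 30 and 7 genes passed, and 2596, 2351 and 1483 had an unadjusted p under 0.05. With slide row as a term 890 passed. The replicate numbers share a slide only for 1, 2 and 4, and deviations of same-numbered arrays correlated from -0.171 to 0.283, so the numbers were not taken as pairs. The replicate block gave 2203 passing genes and ended 25 of 173 calls of named genes. Of these 173 calls, normexp ended 27, array median scaling 28, quantile normalization 13, slide row 122 and the slide blocks 0, and 144 held in all 15 fits without 1 array. The sign turned for Slc34a2 with normexp (-0.0107), Pck1 within slide 2 (-0.10) and with slide row (-0.14), Txnip with slide row (-0.20), Car9 within slide 3 (-0.0862) and Utp20 within slide 2 (-0.0605). It also turned for Blnk in the deposited table (0.0326), with quantile normalization (0.0197), within slide 1 (0.11) and with the replicate block (0.0186), and for Defb19 within slide 2 (0.44) and with the replicate block (0.0779). The cause was not tested. Dim probes, such as Hk2 and Fabp1, are limited by signal over background.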
